A study of Mus musculus with 4 samples.

Results

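The nuclear encoded subunits of the mitochondrial respiratory chain were compared between corticotropes and melanotropes, the pituitary cells that express pro-opiomelanocortin (POMC). Corticotropes process it mainly to ACTH and melanotropes to α-MSH. Members were taken by gene symbol: the Nduf genes of complex I, Sdha to Sdhd of complex II, the Uqcr genes and Cyc1 of complex III, the Cox5 to Cox8 genes of complex IV, and the Atp5 genes of complex V, the ATP synthase. The rule found 80 genes with 98 transcripts among the 24063 genes and 33072 RefSeq transcripts of the deposited table. It left out Cox4i1, whose symbol did not match the pattern, and assembly factors. The table held 37 genes of complex I, 4 of complex II, 9 of complex III, 15 of complex IV and 15 of the ATP synthase.

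RNA-seq was done on 2 corticotrope libraries and 2 melanotrope libraries, from mice of strain C57B6 carrying the POMC-EGFP transgene. The anterior and intermediate lobes were parted by dissection and GFP-positive cells were sorted by flow cytometry, so that all 4 libraries share the strain, the transgene and the gate, and the cell types differ in the lobe they came from. The labels used here give no age and no treatment, and do not say that the replicates came from separate animals or sorts, so the p-values measure only the spread between these libraries, which may be technical. RNA was depleted of ribosomal RNA and read as paired ends of 50 bases.

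The labels were checked against marker genes. Pax7, the transcription factor that specifies melanotropes, was at 9.50 and 7.90 FPKM in corticotropes and 57.9 and 55.4 FPKM in melanotropes, and Crhr1, the receptor for the hypothalamic releasing hormone, was at 126 and 137 FPKM against 8.24 and 6.96 FPKM. Markers of the other pituitary hormone lineages, 13 genes led by Gh, summed to 5822 and 5589 FPKM in corticotropes and to 14.4 and 62.3 FPKM in melanotropes, and all 11 of them that could be tested fell in melanotropes. Of 14 markers of the posterior lobe and glia, 6 could be tested, 4 rose and 1 fell. The 4 that rose were Slc1a3 (1.56 and 2.07 against 11.24 and 13.98 FPKM), Rax, Col25a1 and Mbp. The 1 that fell was Vim (19.48 and 20.02 against 9.76 and 11.89 FPKM). The 14 summed to 27.0 and 28.7 FPKM against 42.9 and 46.7 FPKM. Olig2, which was not tested, was at or below 0.0245 FPKM in every library. Of 7 stem cell markers 4 rose and 2 fell (summed level 67.9 and 76.3 against 229 and 225 FPKM), the rise being led by the keratins Krt8 and Krt18. Vessel and stroma markers (12 genes) summed to between 20.01 and 28.1 FPKM in the 4 libraries, but single genes moved in opposite directions. The 2 that rose were Dcn (2.44 and 2.91 against 9.99 and 7.04 FPKM) and Lum. The 3 that fell were Plvap (6.05 and 9.74 against 2.09 and 1.21 FPKM), Kdr and Rgs5. Of 14 blood and immune markers 3 rose (Csf1r, C1qa and C1qb) and 6 fell, and the 6 were all haemoglobin entries. The 14 summed to 46.5 and 60.6 against 19.4 and 26.7 FPKM, and haemoglobin entries made up most of the corticotrope sums. Some of these entries had nearly the same values, such as Hbb-bs and Hbb-b1 (13.48 and 13.50 FPKM in corticotrope replicate 1), so the sum may count reads repeatedly. The T cell gene Cd3e was at or below 0.0086 FPKM in every library. The part of these other cells in the respiratory chain values was not tested.

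Oxidative phosphorylation runs on 5 complexes in the inner mitochondrial membrane. Complexes I and II pass electrons from NADH and succinate to ubiquinone, complex III passes them on to cytochrome c and complex IV to oxygen, and the proton gradient that I, III and IV build drives the ATP synthase. Most subunits are encoded in the nucleus and imported, while a small set of core subunits of complexes I, III, IV and V is encoded in mitochondrial DNA and is not analysed here. Subunits with more than 1 nuclear copy exist mainly in complex IV, where heart and muscle or testis versions replace the broadly expressed ones.

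Levels are FPKM (fragments per kilobase of transcript, normalised to the library total) of the longest transcript of each gene, rescaled between libraries by a trimmed mean of M values (TMM), and differences are melanotrope over corticotrope on the log2(FPKM + 1) scale, where the added 1 shrinks differences of low genes. The rescaling matters because the deposited columns had nearly equal sums, of which Pomc took 27.8% and 27.2% in the corticotrope columns, but 49.7% and 50.9% in the melanotrope ones. The spacing of low values implied 97630040 and 187277815 reads over the longest transcripts for corticotropes, and 146061472 and 149657535 for melanotropes. For the 74 members with a mean of at least 10 FPKM this gave between 1526 and 196830 implied reads per member and library, with a median of 10668.5. A level is an average over the sorted cells, so that fewer cells with a transcript and less of it per cell cannot be told apart.

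Respiratory chain transcripts were abundant in both cell types and differed little between them. Of the 80 members, 76 passed the filter of at least 1 FPKM in at least 2 libraries, 9 rose in melanotropes (Ndufa12, Ndufb2, Ndufv2, Ndufa11, Sdhb, Cox6a1, Cox5a, Atp5e and Atp5o), 1 fell (Cox8b, which passed the filter through the corticotrope libraries only and lost its call without the filter), and 66 did not pass an adjusted p of 0.05 in limma. This is 13.2% of the tested members, beside 37.1% of all 13036 genes tested, of which 19.5% rose and 17.6% fell. The rises lay between 0.28 and 0.57 on the log2 scale, or between 22.2% and 49.6% above the corticotrope mean. The median difference of the tested members was 0.08, beside 0.01 for all genes tested, and the median size of the difference, whatever its sign, was 0.13 beside 0.22. On the log2(FPKM + 1) scale no tested member differed by 1 or more, while 1158 genes (8.88%) did. Cox8b, at under 2 FPKM in every library, passed 1 with a pseudocount of 0.1 (−1.52).

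Precision was similar in both sets, with a median standard error of 0.08 for members and 0.09 for all genes. The middle 90% of members lay between −0.17 and 0.30, and the same range of all genes between −0.96 and 0.90. For the 74 members with a mean of at least 10 FPKM, every 95% confidence interval lay between −0.42 and 0.76. Their level was high, and among the 1811 genes with a mean of at least 30 FPKM 31.5% passed the test, with a median of 0.09. Of the tested members 71 stayed within 25% of their corticotrope mean and 42 within 10%. Both melanotrope libraries were above both corticotrope libraries for 38 tested members, below for 14, and overlapping for 24. The shares over all genes tested were 37.1% above and 34% below.

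**Figure D1:**
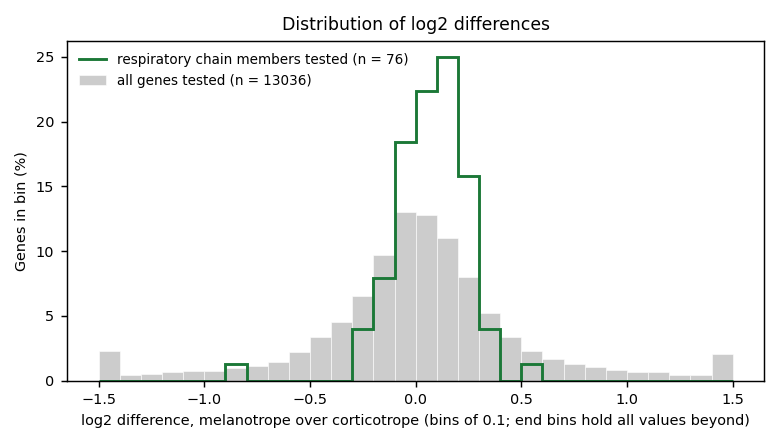
Share of genes (vertical axis, percent) in bins of the log2 difference, melanotrope over corticotrope on the rescaled log2(FPKM + 1) scale (horizontal axis, bins of 0.1). The green outline is the 76 tested members and the grey bars are all 13036 genes tested. The members lie between −0.81 and 0.57, and the outer bins beyond 1 on either side hold none of them. On the deposited scale both distributions lie lower, with medians of −0.41 and −0.42.

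The direction of these small differences depended on how libraries were put on a common scale. Without rescaling, 0 members rose and 67 fell, the median of members was −0.41, and that of all genes −0.42. With TMM computed on genes of at least 30 FPKM, 2 rose and 3 fell, and with equal sums without Pomc, 16 rose and 1 fell. Relative to the median of all genes, the members' median was higher by 0.07 as reported, and by 0.0032 to 0.10 in the 16 alternatives that rescaled the columns. Leaving out 1 library leaves an arm of 1, which is then assumed to vary like the other arm. Without corticotrope replicate 1, corticotrope replicate 2, melanotrope replicate 1 and melanotrope replicate 2 in turn, 2, 1, 1 and 3 members rose and 0, 0, 1 and 2 fell. In these fits 24.1% to 27.4% of all genes were called, beside 37.1% with all libraries. Of the 9 members that rose, Ndufa12 was called in all 4 of these fits, Cox5a and Ndufv2 in 1 (without melanotrope replicate 2), and the other 6 in none. Cox8b could be tested only in the fits that held both corticotrope libraries.

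**Figure D2:**
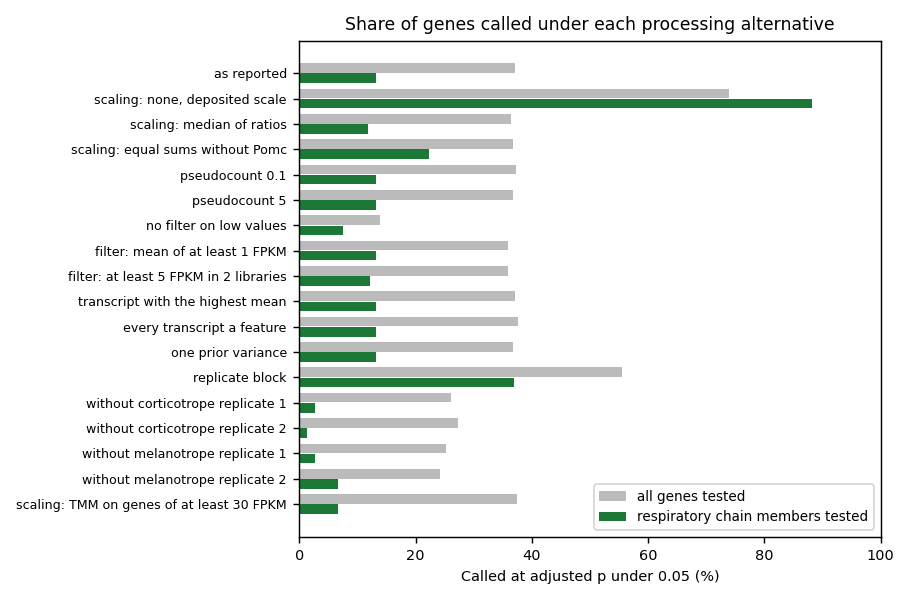
Percent of genes with an adjusted p under 0.05 (horizontal axis) as reported and under each processing alternative, for all genes tested (grey bars) and for the tested respiratory chain members (green bars). The members' share is the smaller in 16 of 17 alternatives, and on the deposited scale it is 88.2% beside 73.9% of genes, with 67 members falling and none rising.

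In the authors' deposited table, 1 member had an FDR under 0.05. The share of all genes under that FDR is not given here, so the count cannot be read as few or many. The member was Atp5e, with a log2 fold change of 0.37, read as melanotrope over corticotrope, and an FDR of 0.0297. The median log2 fold change of the 80 members there was 0.06.

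Promoter sequences are shown for 4 of the 10 called members, as examples that do not stand for the rest. Ndufa12 and Ndufa11 rose within complex I, and Cox6a1 rose within complex IV. Cox8b was the single member called lower, at a level near the filter. Each line is the 250 bases before the start in the RefSeq promoter table on build GRCm38.p6, 5′ to 3′ on the strand of the gene, at chr10:94198785-94199034 (plus strand), chr17:56717512-56717761 (plus), chr5:115348959-115349208 (minus) and chr7:140900447-140900696 (minus), in that order. These starts can differ from those of the deposited transcripts: the last 26 bases of the Ndufa12 line lie inside its deposited transcript, and the Cox6a1 line ends 3 bases short of its deposited start. Capitals mark the exact match of the NRF1 motif CGCATGCG; NRF1 is a transcription factor known for its sites in respiratory chain promoters.
Ndufa12: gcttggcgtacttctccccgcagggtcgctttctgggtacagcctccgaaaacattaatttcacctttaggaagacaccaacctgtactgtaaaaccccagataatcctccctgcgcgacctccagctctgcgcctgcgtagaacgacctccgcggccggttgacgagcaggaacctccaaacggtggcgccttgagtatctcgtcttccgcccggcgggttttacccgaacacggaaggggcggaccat
Ndufa11: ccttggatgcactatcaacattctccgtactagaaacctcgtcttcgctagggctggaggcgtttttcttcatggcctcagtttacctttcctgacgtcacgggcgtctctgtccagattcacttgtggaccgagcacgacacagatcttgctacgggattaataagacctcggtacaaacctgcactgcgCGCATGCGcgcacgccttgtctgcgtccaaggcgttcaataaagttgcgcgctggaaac
Cox6a1: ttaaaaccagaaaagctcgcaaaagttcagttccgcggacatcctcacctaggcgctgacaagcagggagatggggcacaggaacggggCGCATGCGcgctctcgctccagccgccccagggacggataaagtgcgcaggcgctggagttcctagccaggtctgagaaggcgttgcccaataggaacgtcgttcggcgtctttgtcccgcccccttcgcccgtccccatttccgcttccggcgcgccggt
Cox8b: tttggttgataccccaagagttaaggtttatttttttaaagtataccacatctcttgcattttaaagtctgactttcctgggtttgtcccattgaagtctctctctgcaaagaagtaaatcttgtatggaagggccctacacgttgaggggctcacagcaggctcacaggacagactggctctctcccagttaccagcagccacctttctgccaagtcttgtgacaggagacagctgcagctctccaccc
The RefSeq table held a promoter for 67 of the 80 members. In the window of 250 bases before and 50 bases after the start, searched on both strands, CGCATGCG was found in 8 of the 67 (11.9%) and in 2.54% of 17492 promoters of protein-coding genes. The YY1 motif AAGATGGCG was found in 6 members (8.96%, beside 1.94%), the ERR alpha motif TCAAGGTCA in 2 (2.99%, beside 0.33%), the ETS family motif CCGGAAGT in 5 (7.46%, beside 5.29%) and the Sp1 motif GGGGCGGGG in 11 (16.4%, beside 15.5%). None of these motifs contains another. For each member the promoter nearest its deposited start was searched. For all protein-coding genes, expressed or not, it was the first promoter listed, so the shares were not built alike. Of the 8 members with the NRF1 motif, Ndufa11 and Cox6a1 rose in melanotropes, beside 19.5% of all genes tested. Ndufa8, Uqcrc1, Uqcr11, Atp5g2, Atp5k and Atp5l did not pass the test. The other members that rose (Ndufa12, Ndufb2, Ndufv2, Sdhb, Cox5a, Atp5e and Atp5o) did not hold the motif. A link between motif and rise was not tested.

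Complex I takes electrons from NADH through a peripheral arm that carries flavin and iron-sulfur clusters, and pumps protons through a membrane arm. Its 37 genes were all tested, 4 rose and none fell (10.8% called, beside 37.1% of all genes), with a median of 0.08. Of the 37, 31 had a mean between 30 and 100 FPKM. Among the 7 core subunits, which include those that hold the redox centres, Ndufv2 rose. This iron-sulfur protein of the NADH-oxidising module (chromosome 17, 66078795 to 66101559, minus strand) was at 38.8 and 37.4 FPKM in corticotropes and 49.1 and 44.5 FPKM in melanotropes. Its log2 difference was 0.29 (SE 0.08, limma adjusted p = 0.0379). Its partner Ndufv1, the flavin-carrying subunit, was at 63.4 and 65.0 FPKM and at 74.0 and 74.2 FPKM, and did not pass the test (adjusted p = 0.0755). Both melanotrope libraries were higher for each of this pair, as they were for 37.1% of all genes tested.

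Ndufs7, a core iron-sulfur subunit near the ubiquinone site, was at 51.9 and 51.5 FPKM in corticotropes and 48.5 and 50.1 FPKM in melanotropes, and did not pass the test (limma adjusted p = 0.494). Ndufs1, the largest iron-sulfur subunit, overlapped between cell types, from 43.8 to 48.2 FPKM in the 4 libraries.

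The accessory subunits, counted here with Ndufa4, surround the core and stabilise it, and 3 of the 30 rose. Ndufa12, an accessory subunit of the peripheral arm (chromosome 10, 94199009 to 94220948, plus strand), had the largest rise among the members. Its level was 48.8 and 48.3 FPKM in corticotropes and 70.1 and 75.2 FPKM in melanotropes. Both melanotrope libraries were above both corticotrope libraries, as for 37.1% of all genes tested. The log2 difference was 0.57 (SE 0.08, limma adjusted p = 0.00276), and it passed in 16 of 17 alternatives, the exception being the deposited scale (0.08, adjusted p = 0.323). Ndufb2 of the membrane arm (chromosome 6, 39592583 to 39599471, plus strand) was at 76.1 and 78.5 FPKM against 93.7 and 96.6 FPKM, a difference of 0.30 (SE 0.08, limma adjusted p = 0.0274).

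Ndufa11, another membrane arm subunit, whose promoter with the NRF1 motif is shown above (chromosome 17, 56717762 to 56724248, plus strand), was low for the complex. It was at 13.6 and 14.6 FPKM in corticotropes and 17.0 and 17.5 FPKM in melanotropes, a difference of 0.28 (SE 0.08, limma adjusted p = 0.0356). The remaining 27 accessory subunits did not pass the test. Ndufa8, a membrane arm subunit on the intermembrane side, came nearest to a fall: 44.2 and 47.4 FPKM in corticotropes and 38.2 and 39.0 FPKM in melanotropes (−0.24, limma adjusted p = 0.0531). Both melanotrope libraries were below both corticotrope libraries, as for 34% of all genes tested.

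The highest transcripts of the complex I set were Ndufa4 and Ndufb8, and both overlapped between cell types. Ndufa4, named for complex I but since assigned to complex IV, ranged from 113 to 121 FPKM over the 4 libraries, and Ndufb8 from 105 to 113 FPKM. The lowest was Ndufab1, the mitochondrial acyl carrier protein, from 13.2 to 16.2 FPKM. Ndufa7 shows how the choice of transcript sets a level: its longest transcript is a noncoding model at 17.1 and 19.0 FPKM against 14.7 and 17.6 FPKM, while its coding transcript was at 100.4 and 115 FPKM against 100.6 and 110.4 FPKM. Its direction did not pass the test. In all, 71 members had 1 transcript in the table and 9 had several.

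**Figure D3:**
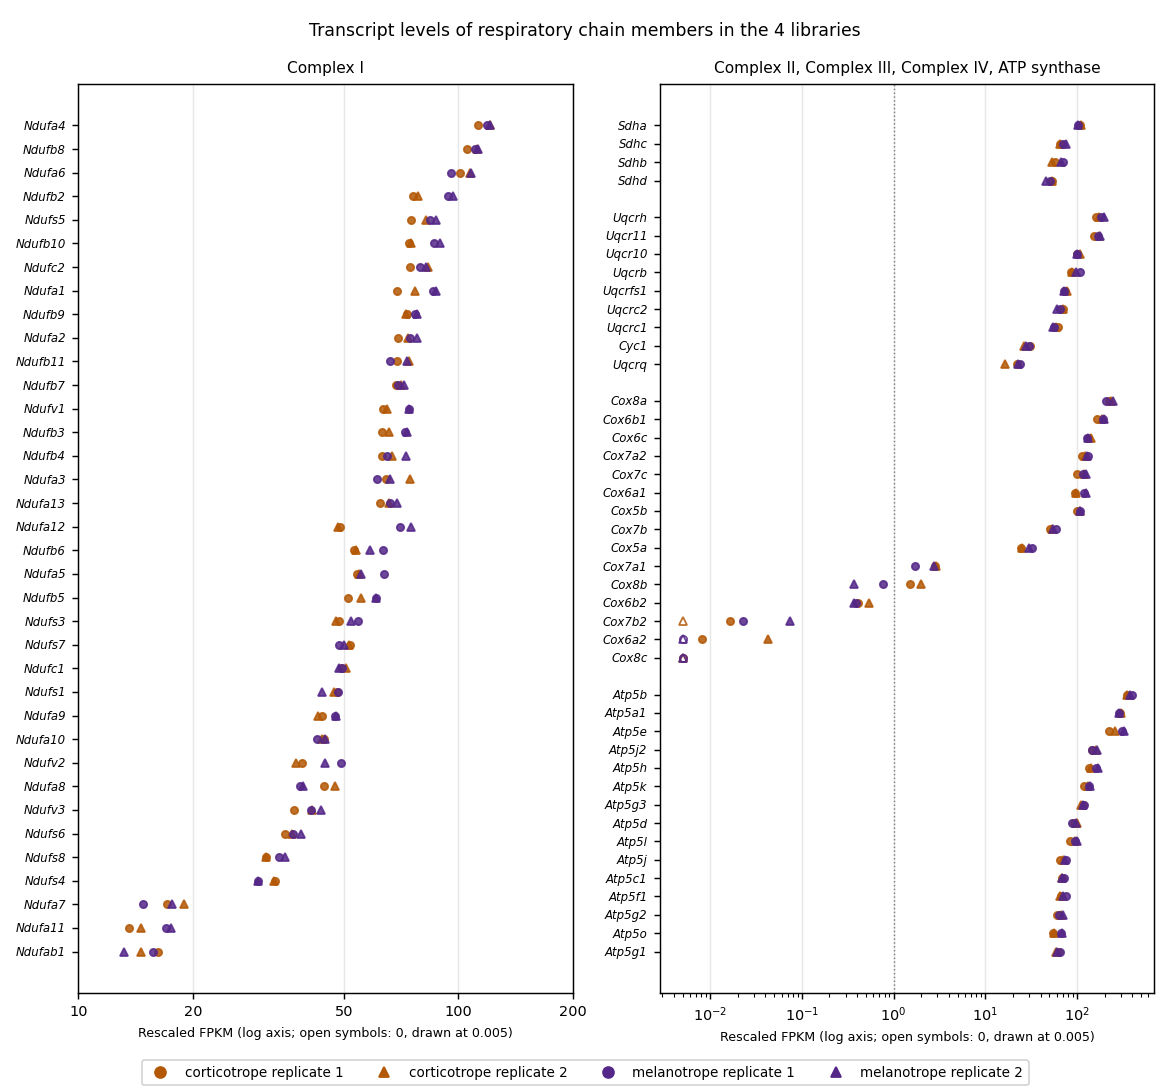
Rescaled FPKM of 79 members in the 4 libraries (horizontal log axes, whose ranges differ between the panels), with complex I on the left and the other complexes on the right, each complex ordered by mean level. Orange marks corticotropes, purple melanotropes, circles replicate 1 and triangles replicate 2, and open symbols are values of 0. Most members sit above 30 FPKM with the cell types side by side. In complex IV, Cox7a1 lies at 1.70 to 2.91 FPKM and Cox8b on either side of the dotted line at 1 FPKM. Cox6a2 and the testis forms lie below that line.

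Complex II, succinate dehydrogenase, is shared with the tricarboxylic acid cycle and has no mitochondrially encoded subunit. Sdhb, its iron-sulfur subunit (chromosome 4, 140961271 to 140979192, plus strand), was at 57.9 and 53.6 FPKM in corticotropes and at 71.2 and 66.1 FPKM in melanotropes, and rose by 0.29 (SE 0.08, limma adjusted p = 0.0383). The flavin-carrying subunit Sdha, in contrast, was at 107 and 109 FPKM in corticotropes and 103 and 103 FPKM in melanotropes (−0.07, limma adjusted p = 0.495). The membrane anchors lay on opposite sides: Sdhc at 64.7 and 65.9 against 70.4 and 74.9 FPKM, and Sdhd at 52.7 and 53.1 against 50.2 and 45.9 FPKM. Neither anchor passed the test (0.15 and −0.14, limma adjusted p = 0.179 and 0.226). The level summed over the complex was 283 and 282 FPKM in corticotropes and 295 and 289 FPKM in melanotropes.

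In complex III, which oxidises ubiquinol, 0 of 9 genes passed the test, beside 37.1% of all genes. An unadjusted limma p under 0.05 was found for 1 of the 9, beside 6140 of all 13036 genes tested. The large core proteins Uqcrc1 and Uqcrc2, relatives of mitochondrial processing peptidases, were lower in both melanotrope libraries, at 62.1 and 59.4 against 56.4 and 54.5 FPKM and at 70.5 and 69.5 against 65.3 and 60.6 FPKM. These differences of −0.13 and −0.15 did not pass the test (limma adjusted p = 0.226 and 0.183), and 34% of all genes tested were lower in both melanotrope libraries. Of the small subunits, Uqcrb was at 85.1 and 87.3 against 108 and 97.2 FPKM, and it shares sequence with 3 annotated pseudogenes.

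The redox subunits of complex III, cytochrome c1 (Cyc1) and the Rieske protein (Uqcrfs1), differed by 0.01 and −0.07. The highest member of the complex was Uqcrh, the hinge protein, at 159 and 172 FPKM in corticotropes and 183 and 199 FPKM in melanotropes (0.21, limma adjusted p = 0.145). Uqcr11, at 154 and 174 against 168 and 178 FPKM, overlapped between cell types. The lowest was the small ubiquinone-binding subunit Uqcrq, at 22.1 and 16.3 against 23.7 and 22.6 FPKM, where the corticotrope replicates differed more from each other than melanotrope replicate 2 did from corticotrope replicate 1.

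Complex IV, cytochrome c oxidase, has both broadly expressed and tissue-restricted subunits. The 9 broadly expressed ones were all tested, and 2 of them (22.2%) rose, beside 19.5% of all genes. Cox6a1, the broadly expressed form of subunit VIa (chromosome 5, 115345654 to 115348955, minus strand), was at 94.4 and 97.8 FPKM in corticotropes and 118 and 124 FPKM in melanotropes, a difference of 0.33 (SE 0.08, limma adjusted p = 0.0243). Cox5a, a subunit on the matrix side (chromosome 9, 57521232 to 57532426, plus strand), was at 24.5 and 25.1 FPKM against 32.1 and 30.2 FPKM, a difference of 0.32 (SE 0.07, limma adjusted p = 0.0191). Its level was the lowest of the broadly expressed subunits, while its partner Cox5b was at 101 and 107 against 108 and 108 FPKM.

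The heart and muscle forms were low beside the broadly expressed ones. Cox8b, the muscle form of subunit VIII (chromosome 7, 140898942 to 140900446, minus strand), was at 1.498 and 1.99 FPKM in corticotropes and 0.770 and 0.368 FPKM in melanotropes. The melanotrope mean was −67.4% relative to the corticotrope mean, and the log2(FPKM + 1) difference was −0.81 (SE 0.16, limma adjusted p = 0.0117), with 75 and 191 implied reads in corticotropes and 53 and 25 in melanotropes. A gene that passes the filter through the higher group only had to differ, so the call is given as a description: with no filter on low values the adjusted p was 0.112, and with a filter of at least 5 FPKM the gene was not tested. Cox7a1, the muscle form of subunit VIIa, was at 2.84 and 2.91 against 1.70 and 2.76 FPKM and did not pass the test (−0.28, limma adjusted p = 0.231). Cox6a2, the muscle form of subunit VIa, was at 0.00823 and 0.0431 FPKM in corticotropes and 0 in both melanotrope libraries, and was not tested.

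Against these, the broadly expressed partners were high in every library. Cox8a, the highest member of the complex, was at 223 and 237 FPKM in corticotropes and 205 and 247 FPKM in melanotropes, with the corticotrope values inside the melanotrope range. Cox7a2 was at 113 and 124 against 131 and 129.7 FPKM, and Cox6b1 at 166 and 188 against 190.5 and 196 FPKM, both without passing the test (limma adjusted p = 0.258 and 0.367). Cox7b, on the X chromosome, was at 50.2 and 52.7 against 59.5 and 55.3 FPKM (0.16, limma adjusted p = 0.178). The testis forms were not tested: Cox6b2 was at 0.412 and 0.534 against 0.391 and 0.368 FPKM, Cox7b2 stayed at or below 0.0736 FPKM, and Cox8c was listed at 0 in all 4 libraries. In both cell types the broadly expressed form was the higher of each pair of isoforms, per length.

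The ATP synthase couples the proton gradient to ATP synthesis through a rotating c ring and central stalk, held by a peripheral stalk. Of its 15 genes 2 rose and none fell (13.3% called, beside 37.1% of all genes), with a median of 0.10. The catalytic and structural F1 subunits Atp5b and Atp5a1 were the highest of all members: Atp5b was at 349 and 351 FPKM in corticotropes and 397 and 382 FPKM in melanotropes, and Atp5a1 at 292 and 304 against 289 and 287 FPKM. Their differences of 0.15 and −0.05 did not pass the test (limma adjusted p = 0.287 and 0.726). Atp5e, the small epsilon subunit of the central stalk (chromosome 2, 174461075 to 174464101, minus strand), was at 226 and 259 FPKM against 309.8 and 323 FPKM, and rose by 0.38 (SE 0.11, limma adjusted p = 0.0400).

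Atp5o, which caps the peripheral stalk and joins it to F1 (chromosome 16, 91925223 to 91931630, minus strand), was at 55.3 and 56.1 FPKM in corticotropes and 67.3 and 69.0 FPKM in melanotropes. It rose by 0.28 (SE 0.07, limma adjusted p = 0.0264). Both melanotrope libraries were above both corticotrope libraries for the 4 peripheral stalk genes, as they were for 37.1% of all genes tested. Of the other 3, Atp5h (136 and 143 against 161 and 171 FPKM) came nearest to the threshold (0.25, limma adjusted p = 0.0727). It shares sequence with 4 annotated pseudogenes.

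The c ring is made of identical subunits that 3 genes encode with different import sequences. Atp5g3 gave 48.6% and 46.8% of their summed FPKM in corticotropes and 48.3% and 47.1% in melanotropes, Atp5g1 26.1% and 24.9% against 26.1% and 24.3%, and Atp5g2 25.3% and 28.3% against 25.6% and 28.6%. The shares differed more between replicates than between cell types. By level, Atp5g3 was at 116 and 111 against 120.1 and 116 FPKM, Atp5g2 at 60.1 and 67.4 against 63.6 and 70.6 FPKM, and Atp5g1 at 61.9 and 59.4 against 64.8 and 59.9 FPKM. None of the 3 passed the test (limma adjusted p = 0.613, 0.591 and 0.734).

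**Figure D4:**
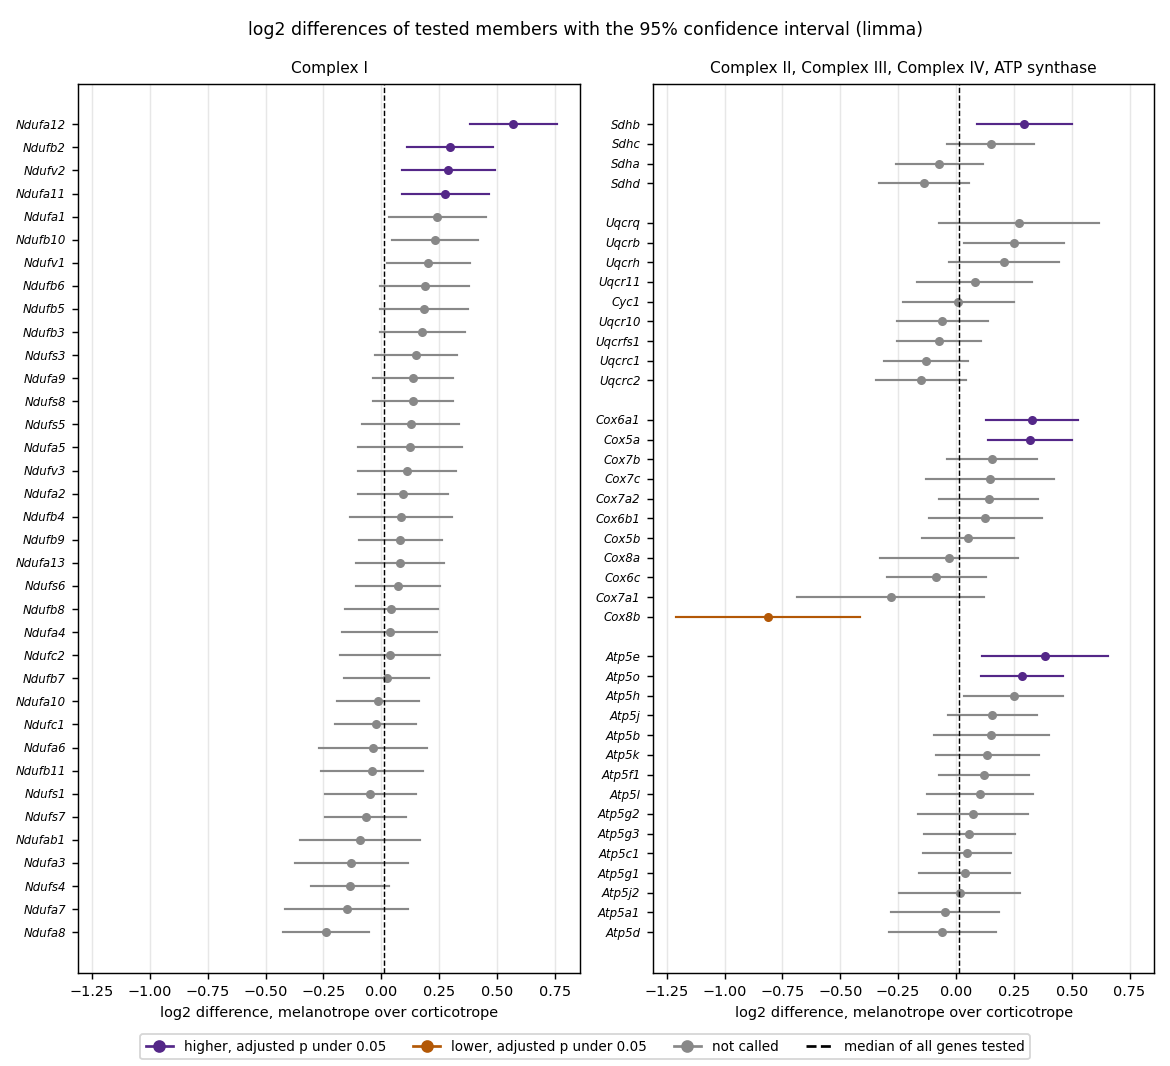
Log2 difference on the rescaled log2(FPKM + 1) scale, melanotrope over corticotrope (horizontal axis), of 75 of the 76 tested members, grouped by complex, with bars for the 95% confidence interval from limma. Purple marks the 9 members that rose, orange the 1 that fell and grey 65 that did not pass, and the dashed line is the median of all genes tested, 0.01. Without rescaling, the median of all genes is −0.42, 0 members rise and 67 fall.

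Summed over all members, levels were 6119 and 6442 FPKM in corticotropes and 6633 and 6778 FPKM in melanotropes, a difference of 6.76%. By complex the summed level in melanotropes was higher by 5.90% for complex I, 3.50% for complex II, 4.57% for complex III, 6.32% for complex IV and 9.26% for the ATP synthase, and on the deposited scale the 5 differences were −26.6% to −22.5%. The order of levels among the 76 tested members was close to the same in all libraries. Spearman's rho across these genes was 0.99 within corticotropes and within melanotropes, and 0.97 to 0.98 between cell types, as a description across genes that are not independent replicates.

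Many members have short transcripts, and the 40 tested ones of up to 700 bases had a median difference of 0.09, beside 0.04 for the 36 longer ones. The same medians over all genes were 0.06 and 0.01. Of the 80 members 21 had at least 1 annotated pseudogene that was at least 95% identical over at least 100 bases, up to 9 for Atp5l, and reads could be split between them and the gene. Ndufa12 and Atp5o were the called members among the 21. A set of 10 members overlapped another gene, 8 of them on the other strand, and since neither labels nor headers say whether strand was used in counting, reads of such pairs may not be told apart. None of the 10 called members overlapped another gene.

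The rest of the machinery of oxidative phosphorylation was read from lists of related genes, beside the same 37.1% of all genes called. Of 14 tested complex I assembly factors 4 rose and none fell. Ecsit, an assembly factor that also takes part in immune signalling, was at 12.7 and 12.8 FPKM in corticotropes and 18.5 and 19.9 FPKM in melanotropes (0.55, limma adjusted p = 0.00295), and Ndufaf4 was at 4.68 and 5.30 against 7.78 and 7.60 FPKM (0.54, limma adjusted p = 0.00590). Both stood clear of the corticotrope values, as did 37.1% of all genes tested, and both were picked by adjusted p. Of 23 complex IV assembly factors 1 rose and 2 fell: Sco2, a copper chaperone, rose by 0.49, Coa6, another copper-handling factor, fell by 0.40, and Cox20, a chaperone of a mitochondrially encoded subunit, fell by 0.37. None of 9 assembly factors of complexes II and III and none of 3 of the ATP synthase passed the test in limma. At an unadjusted limma p under 0.05 there were 2 and 0, beside 6140 of all 13036 genes tested.

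Among 9 tested chain components outside the symbol rule, 1 rose and 2 fell. Cytochrome c (Cycs), the electron carrier between complexes III and IV, was at 9.71 and 8.502 FPKM in corticotropes and 13.5 and 11.5 FPKM in melanotropes (0.42, limma adjusted p = 0.0287). Atp5s and Higd1a, a respiratory chain-associated protein of the hypoxia response, fell by 0.31 and 0.28. Cox4i1, the subunit IV that the symbol rule missed, was at 206 and 230 against 223 and 242 FPKM and did not pass the test (0.09, limma adjusted p = 0.522).

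Of 10 tested porins, carriers and uncoupling proteins, 1 rose and 3 fell. Slc25a5, an ADP/ATP carrier, was at 73.3 and 68.6 FPKM in corticotropes and 120.1 and 98.6 FPKM in melanotropes (0.61, limma adjusted p = 0.00956). Vdac1, the main porin of the outer membrane, was at 129 and 155 against 74.8 and 90.8 FPKM and fell by 0.77 (limma adjusted p = 0.00742). Ucp2, an uncoupling protein homologue, was at 51.7 and 56.3 against 28.7 and 37.2 FPKM and fell by 0.71 (limma adjusted p = 0.00913). Each of the 3 was separated between cell types, as were all genes tested in 37.1% (melanotropes above) and 34% (below). Since the 3 were picked by adjusted p, their separation adds no support. The median of the list was 0.03.

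Of 20 tested regulators of mitochondrial biogenesis 2 rose and 3 fell. The coactivator Pprc1 rose by 0.52 and the polymerase subunit Polg2 by 0.45, while the nuclear receptor Esrrg fell by 0.69 and the transcription factor Mterf3 by 0.32. Of the 77 mitochondrial ribosomal proteins, 10 rose and 2 fell, with a median of 0.08, and of 79 tested cytosolic ribosomal proteins 7 rose and 1 fell, with a median of 0.15. Among 17 genes of cristae and import, Timm23, the inner membrane import channel, rose by 0.56 and Apool fell by 0.44. On the deposited scale the median of all genes is −0.42, so that the directions given for these lists hold on the rescaled scale.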

How the data were processed

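FPKM were deposited by the authors as 1 value per RefSeq transcript and library, counted over exons with HOMER on mm10, per the file headers. Per the submitters' processing notes, TopHat, HOMER and edgeR were used with GRCm38 and mm10 as builds, with versions not given in the sources used here. Authors' log2 fold changes, p-values and FDR, as deposited, were used only where the text names them, and their column of ratios (fold) was not used. Whole-number steps among low FPKM gave the implied reads (94.6% to 100% of low values within 0.1 step).

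Corticotrope columns were divided by 1.21 and 1.16, and melanotrope columns by 0.870 and 0.815. The factors came from a trimmed mean of M values without weights (30% of M and 5% of A trimmed on each side), computed on longest transcripts with at least 1 deposited FPKM in at least 2 libraries, a subset chosen after the values were seen. Genes with at least 1 rescaled FPKM in 2 libraries were tested on log2(FPKM + 1) with limma 3.58.1 in R 4.3.3 (lmFit, eBayes with trend, two-sided, Benjamini-Hochberg over all 13036 genes, threshold 0.05), with cell type as the sole term. "Rose", "fell" and "called" refer to this test. Residual degrees of freedom numbered 2, to which the prior added 3.80. The fit was tested on simulated data.

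Values in all libraries were given for the 3 members per direction and complex with the smallest adjusted p, the 2 highest and the lowest of each complex, isoform sets and complex II. Of each context list up to 2 genes per direction were picked by adjusted p. Some of these are given with the log2 difference only, and some are not named. Other members were added after their values were seen, as were Pax7, Crhr1 and the other markers printed outside that rule. The values of 1 member, which is included in the counts, are not reported here. Members and lists were chosen with earlier results of these data known. Replicate numbers come from the labels, which do not say that they mark a shared animal or day. Other scalings, pseudocounts, filters, transcript choices, prior variances, a replicate block and leave-one-out fits were the 16 alternatives planned, and 1 was added. Gene positions were taken from the deposited table (mm10, counted from 1). Promoters are from RefSeq on GRCm38.p6.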

Additional observations from a re-analysis of the deposited data

How the results depend on the processing

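The share of members called was below that of all genes in the 16 alternatives that rescaled the columns (1.33% to 36.8%, beside 13.8% to 55.6%), and above it on the deposited scale (88.2%, beside 73.9%). Members that rose numbered 9 as reported, 0 on the deposited scale, 16 with equal sums without Pomc, 5 with no filter on low values, and 2 with TMM on genes of at least 30 FPKM, an alternative chosen after seeing the data. Leaving out 1 library gave 1 to 3. Members that fell numbered 1 as reported, 67 on the deposited scale, 0 with a filter of at least 5 FPKM and 3 with TMM on genes of at least 30 FPKM, and 0 to 2 when 1 library was left out. The members' median of 0.08 became −0.41 on the deposited scale, 0.13 with equal sums without Pomc, and −0.0045 with TMM on genes of at least 30 FPKM; without 1 library it was 0.0023 to 0.11. Over all genes, 2544 rose and 2296 fell: 939 and 8787 on the deposited scale, 1579 rose with no filter, 1438 fell with at least 5 FPKM, and without 1 library 1471 to 1767 rose and 1555 to 1635 fell. The filters and left-out libraries changed the genes or samples tested, and the cause of the other shifts was not tested.

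The labels do not say that a replicate number marks a shared animal or day, so the numbers were not used as pairs. Deviations of same-numbered libraries from the cell type means correlated at 0.52 over the 13036 genes tested and 0.34 over the members, and with 2 pairs this does not settle whether they are paired. With a replicate block 23 members rose and 5 fell, and 3836 genes rose.

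Of 1460 single-gene values under the alternatives, for 88 genes, 1260 kept direction and side of the threshold, 115 kept direction but no longer passed, 30 passed newly and 55 changed sign. Of the changes of sign, 28 were of genes called in either fit, all on the deposited scale: Atp5b −0.34, Atp5e −0.11, Atp5g1 −0.45, Atp5g2 −0.42, Atp5g3 −0.43, Atp5h −0.24, Atp5o −0.20, Cox4i1 −0.40, Cox5a −0.16, Cox5b −0.44, Cox6a1 −0.16, Cox6b1 −0.37, Cox7a2 −0.35, Cox7b −0.33, Cyc1 −0.47, Cycs −0.038, Mrpl4 −0.018, Mrps35 −0.0095, Ndufa11 −0.19, Ndufa4 −0.46, Ndufb2 −0.19, Ndufb8 −0.45, Ndufv1 −0.28, Ndufv2 −0.20, Sdhb −0.19, Sdhc −0.34, Uqcr11 −0.41 and Uqcrh −0.29. The other 27 were of genes called in neither fit: on the deposited scale Uqcrq −0.20 and Uqcrb −0.24; with TMM on genes of at least 30 FPKM Atp5g1 −0.047, Atp5g2 −0.012, Atp5g3 −0.029, Ndufa4 −0.0496, Ndufb8 −0.0429, Uqcr11 −0.0057, Cox5b −0.034 and Cyc1 −0.073; with equal sums without Pomc Atp5a1 0.0012, Cox8a 0.017 and Ndufs1 0.00096; and 14 with 1 library left out, over which the ranges were Atp5g1 −0.0209 to 0.10, Atp5g2 −0.0478 to 0.15, Cox4i1 −0.0240 to 0.16, Cox5b −0.0318 to 0.0653, Cox6b1 −0.00187 to 0.18, Cox8a −0.16 to 0.11, Cyc1 −0.13 to 0.0799, Ndufa4 −0.0558 to 0.0582, Ndufab1 −0.20 to 0.0327, Ndufb8 −0.0424 to 0.0626, Ndufs1 −0.11 to 0.0274 and Uqcr11 −0.0488 to 0.14. Cox8b rests on 25 to 191 implied reads, and 4 members were too low to test.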
